A study of Vitis x labruscana x Vitis vinifera with 36 samples.

Results

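Expansin transcripts were followed in berries of 'Shine Muscat', a Vitis labruscana by Vitis vinifera table grape, in a list of 8 gene identifiers named there as alpha-expansins, out of 30661 rows of the count table. All 8 identifiers were present with at least 1 read. The table pairs no identifier with a product name and no annotation was used here, so the family name rests on the list and could not be checked. The study compared seedless berries, which the series title calls treated, with seeded berries, which it calls not treated. Skin and flesh were sampled separately at stages numbered 1, 3 and 4. The 12 groups were therefore seedless skin, seeded skin, seedless flesh and seeded flesh, each at 3 stages and with 3 libraries, 36 in all. Every group was the same cultivar. Which agent made the berries seedless, its dose and when each stage was picked are not stated in the labels, and stage 2 was not analysed here. Whether the 3 libraries of a group came from separate vines is likewise unstated, and the p-values then measure only the spread between these libraries, which may be technical.

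Expansins are small secreted proteins that loosen the plant cell wall without cutting its polymers. They are thought to weaken the non-covalent contacts between cellulose microfibrils and the matrix polysaccharides around them, most strongly in acid walls, so that turgor can stretch the wall. Alpha-expansins are the larger of the main subfamilies in dicots, and fruits use different members during cell enlargement and during softening. In grape, berry growth and the softening at the onset of ripening are the processes with which the family is usually associated.

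Levels are given as CPM, the reads of a gene per mega reads of its library, scaled by the trimmed mean of M-values (TMM). The libraries were made with Lasy-seq, which reads mainly the 3′ ends of transcripts, and no gene lengths were used, so levels are compared between libraries within a gene and not between genes. Library depth was between 0.61 M and 7.34 M counts (M, mega). The seeded stage 1 libraries were the shallowest, with 1.12 M to 2.38 M counts in skin and 0.61 M to 1.25 M in flesh. All other libraries held at least 2.23 M. Differences were tested with edgeR's quasi-likelihood test, and a gene was called at an adjusted p under 0.05, with adjustment over all genes of a comparison. In whole tissue, fewer cells of a kind and less transcript per cell cannot be told apart.

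By the numbering of the identifiers, the 8 genes lie on chromosomes 1, 6, 8, 13, 14, 17 and 18, with a pair on chromosome 6. That pair had hardly any reads. VIT_06s0004g04860 had 2 reads in all, 1 in a seedless flesh library of stage 3 and 1 in a seedless skin library of stage 1. Its other 10 groups had 0 reads, which allows levels of up to 0.179 to 1.24 CPM, taking 3 counts over a group as the limit. VIT_06s0004g00070 had 10 reads in 6 libraries, 9 of them at stage 1, and never more than 3 in a library. Of its 12 groups, 8 had 0 reads, which allows up to 0.152 to 0.307 CPM. These limits cover counting error only. Gene models and the handling of multi-mapping reads are not given, so few reads do not show that a gene was not transcribed. Neither gene passed the filter on low counts, so neither was tested, and the statements below concern the other 6 genes, which had reads in all 36 libraries.

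**Figure D1:**
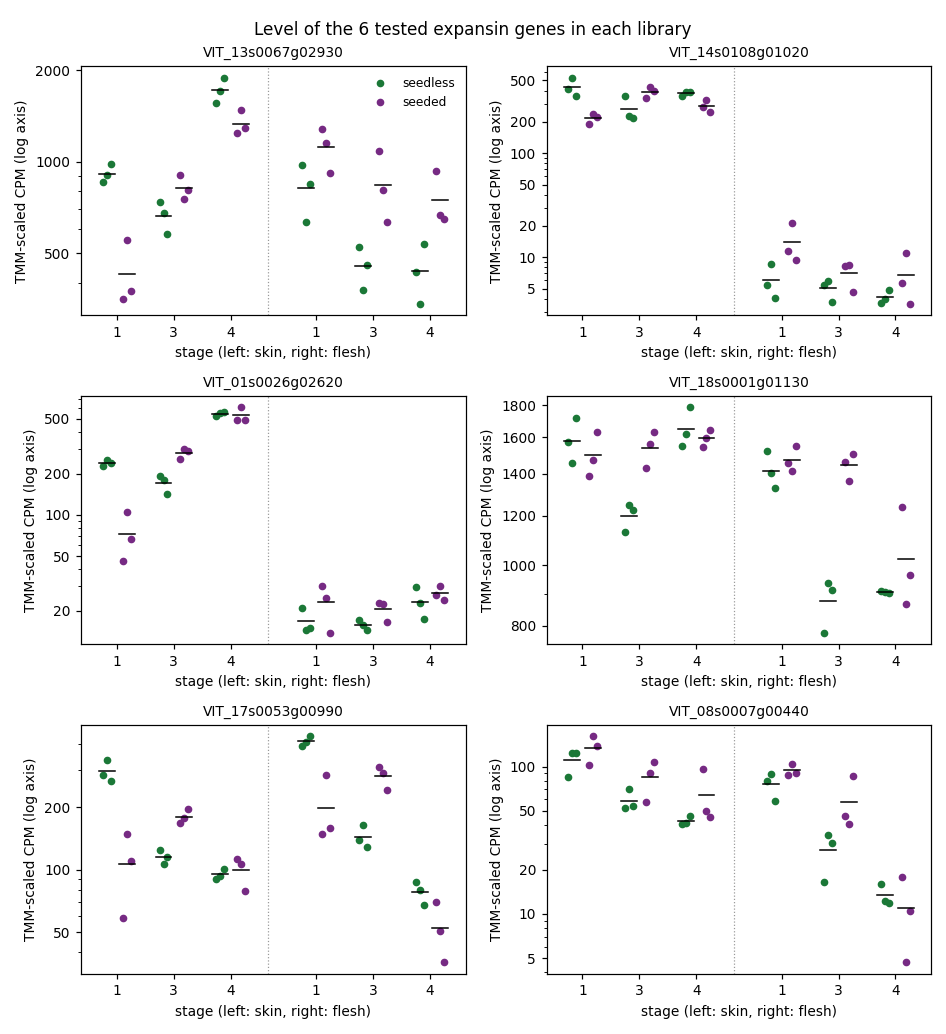
TMM-scaled CPM (log axis) of the 6 tested expansin genes in each of the 36 libraries, by stage, with skin left and flesh right of the dotted line. Points are libraries and bars are group means of 3. VIT_14s0108g01020 and VIT_01s0026g02620 sit far higher in skin than in flesh, and in skin at stage 1 the seedless libraries of 4 genes lie above the seeded ones.

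Skin and flesh differed most in VIT_14s0108g01020 and VIT_01s0026g02620, which were high in every skin group and low in every flesh group. VIT_14s0108g01020 was 34.3-fold higher in skin than in flesh at stage 1, 53.2-fold at stage 3 and 63.1-fold at stage 4, averaged over seedless and seeded berries (log2 differences 5.10 ± 0.21, 5.73 ± 0.19 and 5.98 ± 0.20, SE; edgeR adjusted p = 2.5e-17, 8.3e-20 and 5.4e-20). VIT_01s0026g02620 was 6.76-fold, 12.2-fold and 21.9-fold higher in skin at the same stages (2.76 ± 0.17, 3.61 ± 0.14 and 4.45 ± 0.14; edgeR adjusted p = 4.8e-15, 9.3e-21 and 2.4e-23). These averages join unlike ratios of the berry types. The ratio of mean CPM in skin to that in flesh was 71.6, 53 and 90.8 for VIT_14s0108g01020 in seedless berries at stages 1, 3 and 4, and 15.4, 54.9 and 42.1 in seeded berries. For VIT_01s0026g02620 it was 14.2, 10.9 and 23.6 in seedless berries and 3.14, 13.9 and 19.9 in seeded berries, so a ratio that grew at each step was seen in seeded berries for VIT_01s0026g02620 and in neither berry type for VIT_14s0108g01020. Skin and flesh libraries of these genes did not overlap at any stage. At stage 4 the 3 seedless skin libraries had 355, 384 and 387 CPM of VIT_14s0108g01020, against 3.62, 3.93 and 4.85 CPM in seedless flesh. The seeded libraries of that stage had 251, 279 and 323 CPM in skin and 3.56, 5.66 and 11 CPM in flesh. VIT_01s0026g02620 at stage 4 had 528, 556 and 559.5 CPM in seedless skin and 492, 495 and 612 CPM in seeded skin. The flesh libraries of stage 4 had 17.5, 22.7 and 29.5 CPM of it in seedless berries and 23.8, 26.2 and 30.4 CPM in seeded berries.

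By stage 4 all 6 tested genes were higher in skin, where 41.3% of the 14841 tested genes were called in either direction and 23.3% were higher in skin. The median log2 difference of the 6 was 1.74, and that of all tested genes was 0. VIT_08s0007g00440 was 4.19-fold higher in skin (2.07 ± 0.27; edgeR adjusted p = 4.6e-07), VIT_13s0067g02930 2.65-fold (1.41 ± 0.15; 1.1e-08), VIT_18s0001g01130 1.68-fold (0.75 ± 0.07; 4.2e-14) and VIT_17s0053g00990 1.52-fold (0.60 ± 0.17; 0.0054). These averages also join the ratios of both berry types. In seedless and seeded berries the ratio was 3.19 and 5.82 for VIT_08s0007g00440 and 3.95 and 1.78 for VIT_13s0067g02930. It was 1.82 and 1.56 for VIT_18s0001g01130 and 1.22 and 1.91 for VIT_17s0053g00990. With both berry types pooled, the skin and flesh libraries were apart for 5 of the 6 genes, against 21.1% of all genes. VIT_17s0053g00990 was the exception. Its tissues were apart within each berry type, for which the share of all genes was not counted. It had 89.9 to 101 CPM in seedless skin against 67.7 to 86.8 CPM in seedless flesh. In seeded berries it had 79.3 to 113 CPM in skin against 35.8 to 69.8 CPM in flesh.

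At the earlier stages the tissue differences of these 4 genes were smaller or ran the other way. At stage 3, 4 of the 6 tested genes were higher and 1 was lower in skin, where 40.1% of all genes were called, 22.7% higher and 17.4% lower. With both berry types pooled, libraries of the tissues were apart for 2 of the 6, and for 18.3% of all genes. VIT_17s0053g00990 was also apart within each berry type, again without a count over all genes. Its skin libraries had 106 to 124 CPM in seedless and 168 to 195 CPM in seeded berries. The flesh libraries had 129 to 164 CPM and 242 to 309.9 CPM. The lower one, VIT_17s0053g00990, was at 0.716-fold of its flesh level (-0.48 ± 0.16; edgeR adjusted p = 0.018). VIT_08s0007g00440 was 1.79-fold and VIT_18s0001g01130 1.21-fold higher in skin at that stage (edgeR adjusted p = 0.0049 and 0.00081). VIT_13s0067g02930 was not called at stage 3 (0.26 ± 0.14; edgeR adjusted p = 0.16). Without seeded flesh replicate 1 of that stage its adjusted p was 0.043, and over all alternatives it ran from 0.0055 to 0.37. At stage 1, 2 genes were higher and 2 lower in skin, where 35.4% of all genes were called, 20.1% higher and 15.3% lower. Libraries of the tissues, again with both berry types pooled, were apart for 2 of the 6, and for 11.1% of all genes. The lower ones were VIT_17s0053g00990 (-0.70 ± 0.17; edgeR adjusted p = 0.0021) and VIT_13s0067g02930 (-0.62 ± 0.15; 0.0017). VIT_08s0007g00440 was not called (0.52 ± 0.24; edgeR adjusted p = 0.099), but was called as higher in skin with the replicate block (0.0037), with no filter and at one depth (range over alternatives 6.5e-05 to 0.19). For VIT_13s0067g02930 the average also joins unlike pairs: it had 915 CPM in seedless skin and 817 CPM in seedless flesh, and 427 CPM in seeded skin and 1116 CPM in seeded flesh.

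**Figure D2:**
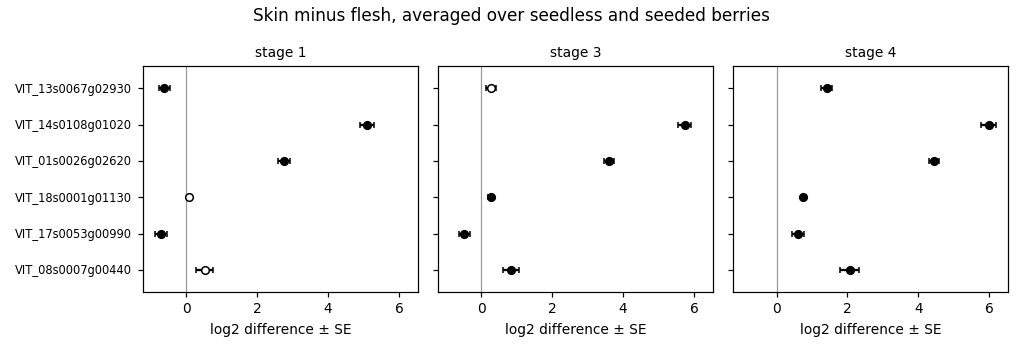
Log2 difference of skin minus flesh (± SE, x axis) of the 6 tested genes (y axis) at stages 1, 3 and 4, averaged over seedless and seeded berries. Filled points passed an edgeR adjusted p of 0.05. VIT_14s0108g01020 lies above 5 at each stage, and all 6 genes lie above 0 at stage 4.

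Seedless and seeded skin differed most at stage 1, where 4 of the 6 tested genes were higher in seedless skin and none was lower. In the same comparison 20.2% of 14193 tested genes were called and 10.4% were higher in seedless skin. The median log2 difference was 1.05 over the 6 genes and 0.02 over all genes. The same number of expansin genes was called with all skin libraries thinned to 1116703 reads, and 4 without each library in turn. Seedless skin libraries of this stage held 2.96 M to 4.02 M counts and seeded ones 1.12 M to 2.38 M.

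VIT_01s0026g02620 had 226, 239 and 250.0 CPM in the 3 seedless skin libraries of stage 1, against 45.8, 66.5 and 104 CPM in the 3 seeded ones. Every seedless library lay above every seeded one, and the fitted level was 3.46-fold higher (log2 difference 1.79 ± 0.19, SE; edgeR adjusted p = 1.1e-06). VIT_17s0053g00990 had 267, 286 and 337 CPM in seedless skin, against 58.6, 110.1 and 149 CPM in seeded skin. It was 2.90-fold higher (1.54 ± 0.22; edgeR adjusted p = 0.00014), again without overlap. VIT_13s0067g02930 had 855, 905 and 983 CPM in seedless skin, against 354, 375 and 552 CPM in seeded skin. VIT_14s0108g01020 had 355, 414 and 532 CPM in seedless skin and 189.6, 225 and 236 CPM in seeded skin. These genes were 2.15-fold and 2-fold higher in seedless skin (edgeR adjusted p = 3.8e-07 and 0.00079), and neither overlapped between the groups; 31.5% of all genes had no overlap here. VIT_18s0001g01130 was at 1581 ± 130.4 CPM in seedless and 1498 ± 122 CPM in seeded skin (SD, n = 3), and the 95% interval of its log2 difference ran from -0.11 to 0.26. VIT_08s0007g00440 averaged 111 CPM in seedless and 134 CPM in seeded skin, with an interval from -0.90 to 0.36.

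In flesh at stage 1 a single expansin gene differed, where 17.1% of 13639 tested genes were called, 8.8% of them being higher in seedless flesh as a share of all tested. VIT_17s0053g00990 had 395, 412 and 438 CPM in seedless flesh, against 149, 159 and 286 CPM in seeded flesh. It was 2.16-fold higher in seedless flesh (1.11 ± 0.23; edgeR adjusted p = 0.0031), with no overlap between the groups, as in 30.7% of all genes. The other 5 genes had log2 differences between -1.11 and -0.05 and were not called. The most negative was that of VIT_14s0108g01020, with 4.09, 5.44 and 8.62 CPM in seedless berries against 9.41, 11.6 and 21.3 CPM in seeded berries (edgeR adjusted p = 0.093), from 8 to 12 reads in each seeded library. VIT_13s0067g02930 (-0.43 ± 0.25; edgeR adjusted p = 0.27) was called in a fit of only these 6 libraries (adjusted p = 0.036; range over alternatives 0.036 to 0.55).

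At stage 1 the signed log2 difference of seedless minus seeded was higher in skin than in flesh for 3 of the 6 genes. In this comparison 2.18% of all genes were called and 1.5% in that direction. The 3 genes had positive differences in skin and negative, uncalled ones in flesh. These were 1.79 in skin and -0.36 in flesh for VIT_01s0026g02620, 1.1 and -0.43 for VIT_13s0067g02930, and 1 and -1.11 for VIT_14s0108g01020. The skin difference exceeded the flesh difference by 2.15 ± 0.39 log2 units in VIT_01s0026g02620, by 1.56 ± 0.30 in VIT_13s0067g02930 and by 2.09 ± 0.55 in VIT_14s0108g01020 (edgeR adjusted p = 0.0014, 0.004 and 0.041). For VIT_17s0053g00990, which was higher in seedless berries in both tissues, the tissues differed by 0.44 ± 0.35 (edgeR adjusted p = 0.61; 95% interval -0.28 to 1.15). The call of VIT_14s0108g01020 was lost without 9 of the 12 libraries of this comparison taken singly: seedless flesh replicate 1 or 3, seedless skin replicate 1 or 2, seeded flesh replicate 1, 2 or 3, and seeded skin replicate 1 or 3. Its log2 value then lay between 1.75 and 2.39, and over all alternatives its adjusted p ran from 1.8e-06 to 0.17.

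At stage 3 every called gene was lower in seedless berries, in both tissues. In flesh, 3 of the 6 tested genes were lower in seedless berries and none was higher, where 10.7% of all genes were called and 5.54% were lower. VIT_18s0001g01130 had 779, 912 and 935 CPM in seedless flesh, against 1365, 1462 and 1507 CPM in seeded flesh. Its fitted level was 0.609-fold that of seeded flesh (-0.72 ± 0.11; edgeR adjusted p = 8.2e-06). VIT_17s0053g00990 had 129, 139 and 164 CPM in seedless flesh, against 242, 289.9 and 309.9 CPM in seeded flesh (log2 difference -0.95 ± 0.21; edgeR adjusted p = 0.0076). Both genes were apart between the groups, as were 29.9% of all genes. VIT_13s0067g02930 had 378, 456 and 523 CPM in seedless flesh, against 631, 807 and 1084 CPM in seeded flesh (log2 difference -0.89 ± 0.24; edgeR adjusted p = 0.034). This call was lost without any of the 3 seedless libraries or without seeded replicate 1 or 2, with no filter on low counts and with scaling by library size only (range over alternatives 0.0011 to 0.13). VIT_08s0007g00440 had 16.4, 30.4 and 34.1 CPM in seedless flesh, against 41, 46.4 and 86.1 CPM in seeded-berry flesh (-1.06 ± 0.34; edgeR adjusted p = 0.062). It was called by DESeq2, with no filter, at one depth and without seeded replicate 2 (range over alternatives 0.0012 to 0.21).

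In skin at stage 3, 2 of the 6 tested genes were lower in seedless berries and none was higher, where 10.6% of all genes were called and 5.47% were lower. VIT_01s0026g02620 had 143, 179 and 193 CPM in seedless skin, against 257, 293 and 304 CPM in seeded skin (-0.73 ± 0.16; edgeR adjusted p = 0.0056). VIT_18s0001g01130 had 1129, 1223 and 1249 CPM in seedless skin, against 1428, 1563 and 1631 CPM in seeded skin (-0.36 ± 0.09; edgeR adjusted p = 0.0067). Seedless libraries lay below all seeded ones in both genes, and also in VIT_13s0067g02930 and VIT_17s0053g00990, which were not called. Of all genes, 29.2% had no overlap here. The other 4 genes had log2 differences between -0.64 and -0.31 and were not called. Of these, VIT_14s0108g01020 and VIT_17s0053g00990 had an adjusted p of 0.056 and 0.063. DESeq2 called both, and VIT_14s0108g01020 was also called with the replicate block and without seedless replicate 1 or seeded replicate 1. The ranges over alternatives were 2e-05 to 0.2 for VIT_14s0108g01020 and 2.8e-05 to 0.18 for VIT_17s0053g00990. Of the 6 genes, 4 were called at one depth and without the seeded stage 1 libraries, and 5 with no filter. At stage 3 no difference between the tissues in the treatment effect was called for any of the 6 genes, nor by DESeq2, and 1 gene had an unadjusted p under 0.05; 0.451% of all genes were called. At stage 4 none of the 6 was called in that comparison by edgeR, 2 had an unadjusted p under 0.05 and DESeq2 called 1, VIT_13s0067g02930 (1.15 ± 0.29; edgeR adjusted p = 0.19, range over alternatives 3.2e-10 to 0.53), where edgeR called 0.128% of all genes.

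At stage 4 none of the 6 genes was called in either tissue by edgeR, where 3.48% of all genes were called in skin and 3.7% in flesh. In each tissue 2 of them had an unadjusted p under 0.05. DESeq2 called 0 of them in skin and 1 in flesh. The genes with unadjusted p under 0.05 in skin were VIT_13s0067g02930, at 1719 ± 167 CPM in seedless and 1336 ± 125 CPM in seeded skin, and VIT_14s0108g01020, at 375 ± 17.7 CPM in seedless and 284 ± 36.6 CPM in seeded skin (SD, n = 3; edgeR adjusted p = 0.12 and 0.27). Their libraries did not overlap, as was so for 22.7% of all genes. In flesh they were VIT_13s0067g02930, with 435 ± 97 CPM in seedless berries against 749 ± 157 CPM in seeded berries, and VIT_17s0053g00990, with 78.1 ± 9.7 CPM in seedless berries against 52.1 ± 17 CPM in seeded berries (edgeR adjusted p = 0.12 and 0.21). The libraries of VIT_13s0067g02930 did not overlap in flesh either, as in 22% of all genes. VIT_13s0067g02930 was the gene called by DESeq2 in flesh (adjusted p = 0.035), and it was also called with the replicate block (range over alternatives 0.011 to 0.36). VIT_17s0053g00990 was called in flesh without seeded flesh replicate 1 (edgeR adjusted p = 0.021) and with no filter (range over alternatives 0.0015 to 0.57). For VIT_01s0026g02620 in skin, 3.46-fold apart at stage 1, the stage 4 interval of the log2 difference ran from -0.29 to 0.37.

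**Figure D3:**
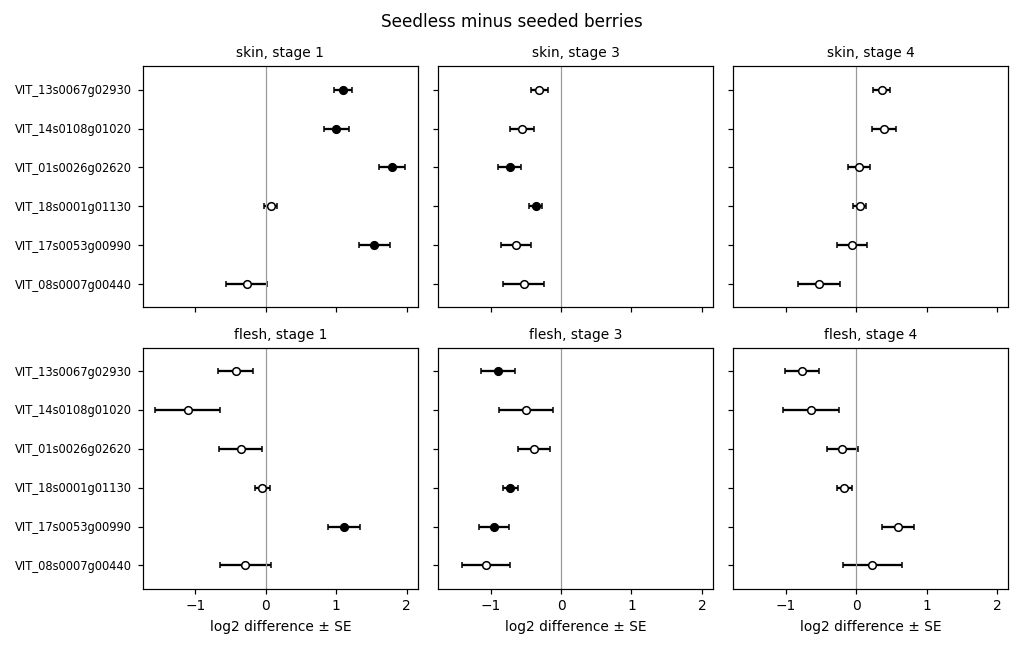
Log2 difference of seedless minus seeded berries (± SE, x axis) of the 6 tested genes (y axis), with skin in the upper and flesh in the lower row and stages 1, 3 and 4 from left to right. Filled points passed an edgeR adjusted p of 0.05. In skin 4 filled points lie above 0 at stage 1 and 2 below 0 at stage 3, and no point is filled at stage 4 in either tissue.

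The change of the seedless-seeded difference between stages was tested as such, with its sign, so a lower difference is not always a smaller gap. In skin the difference at stage 3 was lower than that at stage 1 in 5 of the 6 genes, where 7.86% of all genes were called and 4.43% in that direction. The drop was largest in VIT_01s0026g02620, at -2.52 ± 0.25 log2 units (edgeR adjusted p = 2.3e-06), followed by VIT_17s0053g00990 (-2.18 ± 0.31; 0.00034), VIT_14s0108g01020 (-1.55 ± 0.25; 0.00095) and VIT_13s0067g02930 (-1.41 ± 0.18; 6.3e-06). The fifth, VIT_18s0001g01130 (-0.43 ± 0.13; edgeR adjusted p = 0.031), was not called without seedless skin replicate 1 or 3 of stage 1, seedless replicate 1 of stage 3, seeded replicate 1 of stage 1 or seeded replicate 2 or 3 of stage 3, nor at one depth or with DESeq2's size factors (range over alternatives 0.012 to 0.11). From stage 1 to stage 4 the skin difference dropped in 3 genes, where 15.4% of all genes were called and 8.12% in that direction: VIT_01s0026g02620 (-1.75 ± 0.25; edgeR adjusted p = 5.6e-05), VIT_17s0053g00990 (-1.60 ± 0.31; 0.0022) and VIT_13s0067g02930 (-0.74 ± 0.18; 0.0044). For VIT_18s0001g01130 the skin difference went from 0.07 at stage 1 to -0.36 at stage 3, so the gap between the berry types widened. All these comparisons use the seeded stage 1 skin libraries.

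In flesh the difference at stage 3 was lower than that at stage 1 in 2 of the 6 genes, where 8.02% of all genes were called and 4.36% in that direction. These were VIT_17s0053g00990 (-2.06 ± 0.31; edgeR adjusted p = 0.00059), which was higher in seedless flesh at stage 1 and lower at stage 3, and VIT_18s0001g01130 (-0.67 ± 0.15; 0.0035). The flesh difference of VIT_18s0001g01130 went from -0.05 at stage 1 to -0.72 at stage 3, so there too the gap widened. Between stage 1 and stage 4 none of the 6 was called in flesh by edgeR or by DESeq2, and 0 had an unadjusted p under 0.05, where 12.2% of all genes were called. Without seeded flesh replicate 2 of stage 1, VIT_17s0053g00990 was called in that comparison (adjusted p = 0.024; range over alternatives 0.024 to 0.63).

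Over ripening, VIT_13s0067g02930 and VIT_01s0026g02620 reached their highest skin levels at stage 4 in seedless and in seeded berries. Between stages 3 and 4 VIT_01s0026g02620 rose 3.20-fold in seedless skin, with 528, 556 and 559.5 CPM at stage 4 against 143, 179 and 193 CPM at stage 3 (1.68 ± 0.16; edgeR adjusted p = 6.1e-07). In seeded skin it rose 1.88-fold (0.91 ± 0.16; edgeR adjusted p = 0.00022). VIT_13s0067g02930 rose 2.59-fold in seedless skin, with 1556, 1711 and 1890.3 CPM at stage 4 against 579, 677 and 737 CPM at stage 3 (1.37 ± 0.13; edgeR adjusted p = 8.1e-09). In seeded skin it rose 1.63-fold (0.70 ± 0.12; edgeR adjusted p = 7.5e-05). In all, 3 of the 6 genes rose and none fell in seedless skin over this step, where 13.3% of all genes were called and 5.22% rose, the third being VIT_18s0001g01130 (0.46 ± 0.09; edgeR adjusted p = 0.00035). In seeded skin 2 rose and 1 fell, where 31.3% of all genes were called, 14.3% rising and 17% falling, and the one that fell was VIT_17s0053g00990 (-0.86 ± 0.21; edgeR adjusted p = 0.0057). VIT_14s0108g01020 had log2 differences of 0.49 ± 0.17 in seedless and -0.45 ± 0.17 in seeded skin over this step and was called in neither (edgeR adjusted p = 0.076 and 0.06). Of the fits with a library left out, that without stage 3 replicate 1 called it in seedless skin (range over alternatives 7.8e-05 to 0.25). In seeded skin it was called with the replicate block and without stage 3 replicate 1 or stage 4 replicate 2 (0.00028 to 0.2). VIT_08s0007g00440 was called in seeded skin without stage 4 replicate 1 (adjusted p = 0.012; 0.012 to 0.65).

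Between stages 1 and 3, VIT_13s0067g02930, VIT_14s0108g01020 and VIT_17s0053g00990 rose in seeded skin and fell in seedless skin. In seeded skin 4 of the 6 genes rose and none fell, where 21.7% of all genes were called and 10.4% rose. VIT_01s0026g02620 rose 4.13-fold (2.05 ± 0.19; edgeR adjusted p = 1.7e-07), VIT_13s0067g02930 1.93-fold (0.95 ± 0.13; 3.6e-06), VIT_14s0108g01020 1.80-fold (0.84 ± 0.18; 0.0029) and VIT_17s0053g00990 1.76-fold (0.81 ± 0.23; 0.017). The call of VIT_17s0053g00990 was lost without seeded skin replicate 3 of stage 3 and in a fit of only the 6 libraries (adjusted p = 0.051 and 0.11; range over alternatives 1.7e-07 to 0.11). In seedless skin 4 genes fell and none rose, where 6.14% of all genes were called and 3.95% fell. VIT_17s0053g00990 fell to 106, 115 and 124 CPM at stage 3, against 267, 286 and 337 CPM at stage 1 (-1.36 ± 0.21; edgeR adjusted p = 0.00072). VIT_18s0001g01130 fell by 0.40 ± 0.09 log2 units (edgeR adjusted p = 0.0041). VIT_14s0108g01020 (-0.70 ± 0.17) and VIT_13s0067g02930 (-0.46 ± 0.12) also fell, each with an edgeR adjusted p of 0.023. Both calls were lost without stage 1 replicate 2 or stage 3 replicate 2 or 3, and with scaling by library size only. VIT_14s0108g01020 also lost its call without stage 1 replicate 1 and in the fit of only the 6 libraries (adjusted p = 0.21), and VIT_13s0067g02930 without stage 1 replicate 3. Over alternatives their adjusted p ran from 2.8e-08 to 0.21 and from 4.3e-05 to 0.16. VIT_08s0007g00440 had a negative difference in both skins, -0.91 ± 0.29 in seedless and -0.64 ± 0.29 in seeded berries (edgeR adjusted p = 0.093 and 0.14). DESeq2 called both (adjusted p = 0.0068 and 0.03; ranges over alternatives 0.00047 to 0.28 and 0.03 to 0.34). VIT_18s0001g01130 differed by 0.03 ± 0.09 in seeded skin (95% interval -0.15 to 0.22). In seedless skin VIT_01s0026g02620 had a negative difference too, of -0.48 ± 0.16, but was not called (edgeR adjusted p = 0.1, 95% interval -0.82 to -0.13). The replicate block called it, and DESeq2 called all 6 genes in seedless skin.

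In flesh the genes that passed the test over ripening fell, and VIT_17s0053g00990 and VIT_08s0007g00440 fell furthest. VIT_17s0053g00990 had 415, 144 and 78.1 CPM at stages 1, 3 and 4 in seedless flesh, as means of 3 libraries, and 198, 281 and 52.1 CPM in seeded flesh. In seedless flesh it fell at both steps (-1.52 ± 0.22 and -0.90 ± 0.22; edgeR adjusted p = 0.00031 and 0.0094). The second of these calls was lost without seedless flesh replicate 3 of stage 4 (adjusted p = 0.063; range over alternatives 5.1e-09 to 0.063). In seeded flesh the stage 1 to 3 difference of 0.54 ± 0.23 was not called (edgeR adjusted p = 0.12), and the fall came between stages 3 and 4 (-2.44 ± 0.23; edgeR adjusted p = 4.9e-07). VIT_08s0007g00440 had 75.9, 27 and 13.4 CPM in seedless flesh and 94.2, 57.8 and 10.9 CPM in seeded flesh. It fell between stages 1 and 3 in seedless flesh (-1.47 ± 0.33; edgeR adjusted p = 0.017) and between stages 3 and 4 in seeded flesh (-2.35 ± 0.39; 0.00032). The first of these calls was lost without seedless flesh replicate 1 or 2 of stage 1 or replicate 3 of stage 3 (range over alternatives 6.7e-05 to 0.068). VIT_18s0001g01130 fell over the same steps, by 0.69 ± 0.11 log2 units in seedless flesh (edgeR adjusted p = 3.2e-05) and by 0.51 ± 0.11 in seeded flesh (0.00026).

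By counts, 3 of the 6 genes fell between stages 1 and 3 in seedless flesh, where 5.78% of all genes were called and 3.3% fell. There 1 gene fell between stages 3 and 4, where 14.5% were called and 9.14% fell. In seeded flesh 3 fell between stages 3 and 4, where 31.7% of all genes were called and 17.7% fell. Between stages 1 and 3 none was called in seeded flesh by edgeR or DESeq2, 1 had an unadjusted p under 0.05, and 17.7% of all genes were called. No gene was called as higher at the later stage in flesh by edgeR on all libraries. In that stage 1 to 3 comparison VIT_17s0053g00990 (0.54 ± 0.23) was called as higher at stage 3 without seeded flesh replicate 2 of stage 1 and with no filter. Its edgeR adjusted p without that replicate was 0.0017, and over alternatives it ran from 9e-04 to 0.35. VIT_08s0007g00440 was called as lower without seeded flesh replicate 3 of stage 3 and in the 6 libraries alone (edgeR adjusted p = 0.031 and 0.044). Its adjusted p over alternatives ran from 0.031 to 0.46. In seedless flesh VIT_13s0067g02930 (-0.85 ± 0.24; edgeR adjusted p = 0.065) was called between stages 1 and 3 by DESeq2, with the replicate block, in the 6 libraries alone and without stage 1 replicate 2 (range over alternatives 0.0027 to 0.19). Between stages 3 and 4 VIT_08s0007g00440 (-1.05 ± 0.37; edgeR adjusted p = 0.073) was called by DESeq2, with no filter, in the 6 libraries alone and without stage 3 replicate 1 (range over alternatives 0.0027 to 0.83). VIT_01s0026g02620 (0.53 ± 0.22; edgeR adjusted p = 0.097) was called as higher at stage 4 without stage 4 replicate 3, with library size only and in the 6 libraries alone (0.029 to 0.41).

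**Figure D4:**
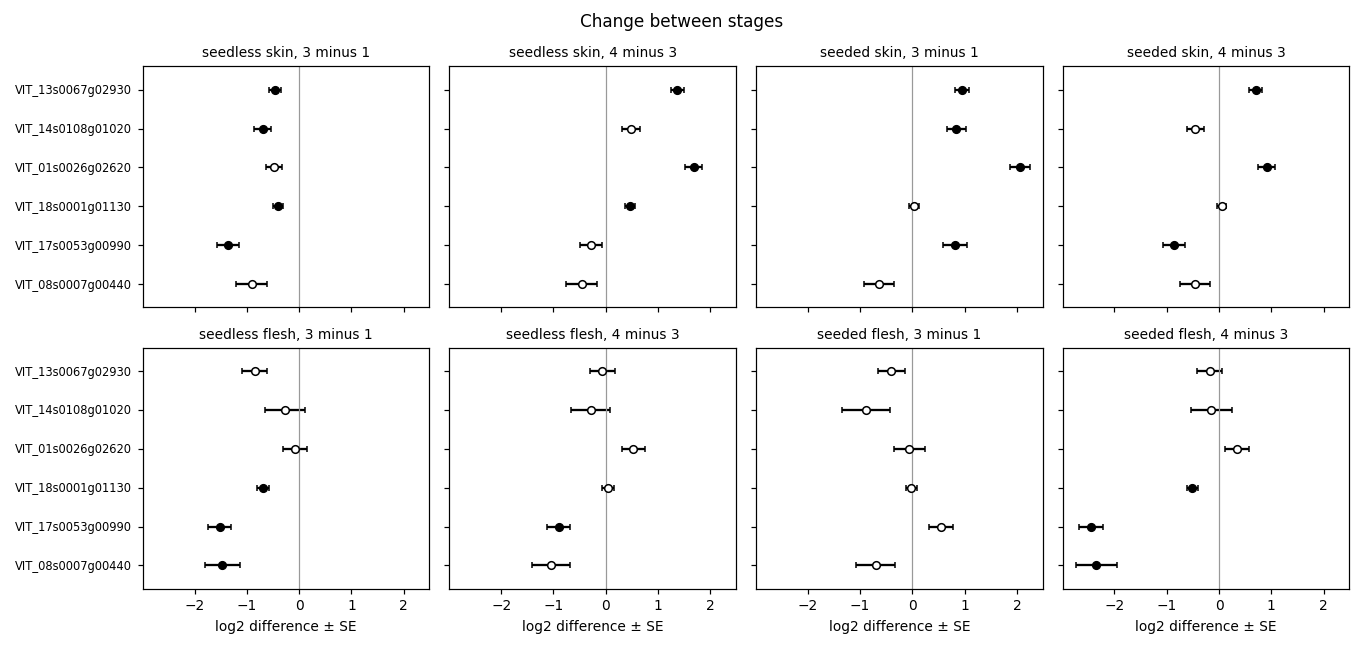
Log2 change between stages (± SE, x axis) of the 6 tested genes (y axis), with skin in the upper and flesh in the lower row, seedless berries in the left and seeded berries in the right pair of columns. Filled points passed an edgeR adjusted p of 0.05. From stage 1 to 3, 4 filled points lie below 0 in seedless skin and 4 above 0 in seeded skin, and every filled point in flesh lies below 0.

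The order of the 12 groups differed from gene to gene. Groups were ranked by their own means, and neighbours apart or overlapping were not counted over all genes. The steps below are therefore descriptions only. VIT_13s0067g02930 was highest in seedless skin at stage 4 (1719 ± 167 CPM, SD, n = 3), apart from seeded skin at stage 4 (1336 ± 125), and from there each neighbour overlapped the next down to seedless skin at stage 3 (664 ± 79.5). It was lowest in seedless flesh at stages 3 and 4 and in seeded skin at stage 1 (452 ± 72.3, 435 ± 97 and 427 ± 109 CPM), which overlapped. VIT_01s0026g02620 gave the clearest steps. After the stage 4 skins, which overlapped each other, came seeded skin at stage 3 (285 ± 24.3), seedless skin at stage 1 (239 ± 11.9), seedless skin at stage 3 (171 ± 25.8) and seeded skin at stage 1 (72.1 ± 29.5), each apart from the next, and then the 6 flesh groups, whose neighbours all overlapped. VIT_14s0108g01020 ran from seedless skin at stage 1 (434 ± 89.8) to seedless flesh at stage 4 (4.13 ± 0.639). Its lowest skin group, seeded skin at stage 1 (217 ± 24.1), stood apart from its highest flesh group, seeded flesh at stage 1 (14.1 ± 6.33).

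VIT_18s0001g01130 varied least, 1.89-fold between its highest and lowest group mean. Its 8 highest groups overlapped neighbour by neighbour, from seedless skin at stage 4 (1652 ± 124 CPM) to seedless flesh at stage 1 (1416 ± 97.3), and the lowest was seedless flesh at stage 3 (875 ± 83.9). VIT_17s0053g00990 was highest in seedless flesh at stage 1 (415 ± 21.7), apart from seedless skin at stage 1 (297 ± 36), and lowest in seeded flesh at stage 4, a 7.96-fold range. VIT_08s0007g00440 was highest in seeded skin at stage 1 (134 ± 30) and lowest in seeded flesh at stage 4 (10.9 ± 6.51), a 12.3-fold range. Its 9 highest groups overlapped neighbour by neighbour.

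Among themselves the genes followed more than 1 course. Over the 12 group means of log2(CPM + 1), VIT_14s0108g01020 and VIT_01s0026g02620 correlated at 0.93, but at 0.61 within the 6 skin groups and 0.19 within the 6 flesh groups. VIT_18s0001g01130 and VIT_08s0007g00440 correlated at 0.80, but at 0.04 within skin and 0.85 within flesh. Within the 6 skin groups VIT_13s0067g02930 correlated with VIT_01s0026g02620 at 0.97 and with VIT_08s0007g00440 at -0.76, against 0.21 and 0.67 within flesh. Within the 6 flesh groups VIT_17s0053g00990 and VIT_08s0007g00440 correlated at 0.90, against 0.47 within skin. These are descriptions over group means that share libraries, depth and scaling.

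Among 12984 other genes with a group mean of at least 5 CPM, the course most like that of each expansin gene over the 12 group means was sought. The r values span both tissues and were not computed within either. A high r need not mean a like course within skin or within flesh. VIT_04s0008g03930 and VIT_10s0003g01640 followed VIT_14s0108g01020 (each r = 0.996). VIT_14s0030g01860 and VIT_16s0148g00160 followed VIT_01s0026g02620 (r = 0.987 and 0.983). The highest group mean of VIT_16s0148g00160 was 5.06 CPM, close to the cut of 5 CPM. VIT_01s0011g01140 and VIT_03s0038g02090 followed VIT_08s0007g00440 (0.982 and 0.978). VIT_18s0117g00070 and VIT_08s0007g03690 followed VIT_17s0053g00990 (0.972 and 0.941), and VIT_17s0000g02150 and VIT_08s0007g07090 followed VIT_18s0001g01130 (0.936 and 0.915). VIT_13s0067g02930 had the least close followers, VIT_17s0000g09800 and VIT_00s0323g00070 (0.906 and 0.848).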

How the data were processed

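The data are raw read counts per gene and library, which the authors deposited as whole numbers without normalization. Per the labels' protocols, RNA was extracted from skin and flesh separately and libraries were made with Lasy-seq. The tools named are fastp 0.20.0, HISAT2 2.2.1 and featureCounts, per the submitters' processing notes. Not given in the sources used here are genome build, gene models, strandedness and the handling of multi-mapping reads, so reads of near-identical or overlapping genes may be split or shared. Of 30661 rows, 690 carry ENSRNA identifiers and stayed in the fits; they held no more than 3.14% of any library. Columns were tied to samples by treatment, stage, tissue and number. Libraries of a group differed by at least 3.45 times the variance of counting alone.

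Tests used edgeR 4.0.16 in R 4.3.3: filterByExpr with a minimum count of 10, TMM, robust dispersions, the quasi-likelihood F-test and Benjamini-Hochberg adjustment over all genes (threshold 0.05). Skin and flesh were fitted apart with 18 libraries each, and comparisons between tissues used all 36. The SE is the log2 difference over the square root of F. Alternatives were DESeq2 1.42.0, its size factors in edgeR, no filter, one depth (608901 reads in flesh and over both tissues, 1116703 in skin), the replicate block, the 6 libraries alone and each library left out. Scaling by library size only, leaving out the seeded stage 1 libraries and the comparison of stage 3 with stage 1 differences were added after seeing the data. Replicate numbers were checked as pairs: deviations from group means correlated at 0.132 to 0.221 between skin and flesh of the same number at stage 3, over the 0.1 taken as pairing, and the block moved no expansin call there. It moved the number of all genes whose treatment difference differed between the tissues at stage 3 to 281, against 67. In the other comparisons at least 1 pair lay under 0.1.

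All 8 genes are named. Other genes are named where they are the 2 most correlated with an expansin gene over the group means. The members and lists were chosen with earlier results of these data known. Wall gene and tissue marker lists, written by product name, could not be matched to identifiers, so tissue labels were not checked against markers.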

Additional observations from a re-analysis of the deposited data

Results flagged for a closer look

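The results here are those in which a seedless-seeded difference itself differed between stages or tissues by edgeR's interaction test, given as log2 units. At stage 3 against stage 1 in skin these were VIT_01s0026g02620 (-2.52), VIT_17s0053g00990 (-2.18), VIT_14s0108g01020 (-1.55), VIT_13s0067g02930 (-1.41) and VIT_18s0001g01130 (-0.43). In flesh at the same stages they were VIT_17s0053g00990 (-2.06) and VIT_18s0001g01130 (-0.67). At stage 4 against stage 1 in skin they were VIT_01s0026g02620 (-1.75), VIT_17s0053g00990 (-1.60) and VIT_13s0067g02930 (-0.74). Between skin and flesh at stage 1 they were VIT_01s0026g02620 (2.15), VIT_14s0108g01020 (2.09) and VIT_13s0067g02930 (1.56). All of them use the seeded stage 1 libraries, which were the shallowest. At one depth 4 of the 5 skin genes of the first comparison were called, and 2, 3 and 3 genes in the other comparisons.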

How the results depend on the processing

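The number of expansin genes called in a comparison kept within 1.5 times the reported one except as follows, and the cause was not tested. For seedless against seeded flesh it was 2 at stage 1 in the 6 libraries alone (reported 1), and 1 at stage 4 with DESeq2, with no filter and with the replicate block (reported 0). For seedless against seeded skin at stage 3 it was 4 with DESeq2, at one depth and without the seeded stage 1 libraries, and 5 with no filter (reported 2). At stage 4 in skin it was 2 with no filter and in the 6 libraries alone, and 1 without the seeded stage 1 libraries (reported 0). From stage 3 to 4 in seedless flesh it was 2 with DESeq2, with no filter and with library size only, and 3 in the 6 libraries alone (reported 1). From stage 1 to 3 it was 1 in seeded flesh with no filter and in the 6 libraries alone (reported 0), and 2 in seedless skin with library size only (reported 4). The treatment difference between tissues called 1 gene at stage 3 with no filter and 1 at stage 4 with no filter or DESeq2 (reported 0).

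With each library left out, the numbers ran from 0 to 1 for seedless against seeded flesh at stage 4 (1 without seeded replicate 1), from 1 to 2 for stages 3 to 4 in seedless flesh (2 without stage 3 replicate 1), from 0 to 1 for stages 1 to 3 in seeded flesh and for the change of the flesh difference from stage 1 to 4, and from 2 to 4 for stages 1 to 3 in seedless skin. The replicate block changed 6 single-gene calls, all gained: VIT_13s0067g02930 in flesh between treatments at stage 4 and between stages 1 and 3 in seedless berries, VIT_14s0108g01020 in skin between treatments at stage 3 and between stages 3 and 4 in seeded berries, VIT_01s0026g02620 between stages 1 and 3 in seedless skin, and VIT_08s0007g00440 between the tissues at stage 1. It changed no other call. Over all genes, thinning to one depth moved the number called by over 1.5 times in 22 of 24 comparisons. Across all 24 it lay between 0.11 and 0.71 of the reported number. With library size only the median log2 difference of all genes was up to 0.19 in size. Of the 6 tested genes VIT_14s0108g01020 had the fewest reads in the seeded flesh libraries of stage 1, 8 to 12 in each. The part of depth in the calls of single genes was not tested.

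Direction changed in 64 single-gene values of 23 differences, 0 of them called in the reported fit or under that alternative, and the cause was not tested. At one depth these were VIT_01s0026g02620 between treatments in flesh at stage 4 (0.4, reported -0.20), its flesh treatment difference at stage 3 against stage 1 (0.21, reported -0.02), that of VIT_18s0001g01130 at stage 4 against stage 1 in skin (0, reported -0.02), and the treatment difference between tissues of VIT_08s0007g00440 at stage 1 (-0.05, reported 0.04), VIT_14s0108g01020 at stage 3 (0.32, reported -0.03) and VIT_17s0053g00990 at stage 3 (-0.04, reported 0.32). With library size only they were VIT_01s0026g02620 from stage 1 to 3 in seedless flesh (0.02, reported -0.08) and its flesh difference at stage 3 against stage 1 (0.1), VIT_13s0067g02930 from stage 3 to 4 in seedless flesh (0.07, reported -0.07) and seeded flesh (0.01, reported -0.18), and VIT_14s0108g01020 from stage 3 to 4 in seeded flesh (0.05, reported -0.15). With DESeq2 and with its size factors they were VIT_01s0026g02620 in the flesh difference at stage 3 against stage 1 (0.04 and 0.03), VIT_18s0001g01130 from stage 1 to 3 in seeded skin (-0.01 in both, reported 0.03) and its skin difference at stage 4 against stage 1 (0.01 in both). The replicate block turned the flesh difference of VIT_01s0026g02620 at stage 3 against stage 1 (0.02), and no filter turned VIT_18s0001g01130 from stage 1 to 3 in seeded flesh (0.02, reported -0.02).

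With each library left out, values crossed 0 as follows. Between treatments they ran from -0.09 to 0 (VIT_18s0001g01130, flesh, stage 1), -0.07 to 0.74 (VIT_08s0007g00440, flesh, stage 4), and in skin at stage 4 from -0.01 to 0.09 (VIT_18s0001g01130), -0.02 to 0.15 (VIT_01s0026g02620) and -0.21 to 0.03 (VIT_17s0053g00990). From stage 1 to 3 they ran from -0.19 to 0.1 (VIT_01s0026g02620) and -0.49 to 0.08 (VIT_14s0108g01020) in seedless flesh, -0.05 to 0.03 (VIT_18s0001g01130) and -0.41 to 0.23 (VIT_01s0026g02620) in seeded flesh, and -0.01 to 0.1 (VIT_18s0001g01130) in seeded skin. From stage 3 to 4 they ran from -0.22 to 0.09 (VIT_13s0067g02930) and -0.04 to 0.1 (VIT_18s0001g01130) in seedless flesh, and -0.66 to 0.18 (VIT_14s0108g01020) and -0.36 to 0.05 (VIT_13s0067g02930) in seeded flesh. The treatment difference at stage 4 against stage 1 ran from -0.13 to 0.51 (VIT_01s0026g02620) and -0.23 to 0.03 (VIT_18s0001g01130) in flesh, and -0.09 to 0.04 (VIT_18s0001g01130) and -0.47 to 0.12 (VIT_08s0007g00440) in skin. At stage 3 against stage 1 it ran from -0.31 to 0.32 in flesh (VIT_01s0026g02620). Between tissues it ran from -0.14 to 0.2 (VIT_08s0007g00440, stage 1) and -0.28 to 0.17 (VIT_14s0108g01020, stage 3).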
